A study of Caenorhabditis elegans with 3 samples.

Results

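Short tail-to-tail inversions in the transgene DNA of the *Caenorhabditis elegans* strain HC566 are described here. HC566 has many copies of the plasmid pTG96 integrated as an array, in which the worm gene *sur-5* is fused to *gfp*, the gene of the green fluorescent protein. Mixed-stage worms were grown at 20 °C in liquid on *E. coli* OP50, and all libraries came from this strain. Of 3 libraries, 1 per group, the one of paired-end genomic DNA holds the inversions described, and single-read genomic DNA and poly-A-selected RNA serve for comparison. There are no replicates and no strain without the array, so every value describes these libraries, intervals cover counting error only, and no test between groups was possible.

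The reads had been mapped to a reference of 24012 bases, made of the 12006 bases of the plasmid followed by their reverse complement. A junction from the first copy to the second was read as an inversion, and its edges are the 2 plasmid positions that it joins, counted from 1. Of 601 distinct inversions in paired-end DNA, the 526 whose edges lay at most 500 bp apart were taken as short (95% exact Poisson interval 482 to 573). The other 75 were taken as longer. All 3 lists together held 1193 distinct junctions, each counted 1 time, of which 809 were in paired-end DNA. The limit of 500 bp and the edges were the only values used to choose the members.

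Repetitive arrays in *C. elegans* arise from injected DNA, whose copies recombine with one another. In a tail-to-tail inversion the sequence runs up to one edge, crosses to the opposite strand at the other edge and runs back. A single strand across such a join therefore holds a stretch and, after a spacer, the reverse complement of that stretch, which can fold back into a hairpin. RNA copied through such a join can pair with itself, and double-stranded RNA is the trigger of RNA interference in the worm. Short identical stretches at the edges of a rearrangement, known as microhomology, are a common feature of joins made by several DNA repair pathways.

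In these inversions the length of the spacer between the hairpin arms equals the span, the distance between the edges. The identical bases of a join are those that are the same on one strand at the first edge and on the opposite strand at the second, so that the join could be placed at any of them. The stretches of *sur-5*, a gene of chromosome X in the RefSeq annotation, show what such edges look like. They are the joins inside *sur-5* with the most paired-end reads, with the most identical bases and with the most RNA reads. Capitals mark the identical bases, all stretches are written 5′ to 3′, and the second edge is given on the opposite strand. They were read from the plasmid sequence deposited by the authors.
5993 and 6262, first edge: tttttataggctctCATCGCgtcgatttct
5993 and 6262, second edge: gaatttttgagataCATCGCaatttgccga
5993 and 6262, join: tttttataggctctCATCGCaatttgccga
5276 and 5596, first edge: actgtccCCTGAAATGTTtttttgtattta
5276 and 5596, second edge: agatcatCCTGAAATGTTaaaaattaaagt
5276 and 5596, join: actgtccCCTGAAATGTTaaaaattaaagt
5276 and 5393, first edge: actgtcccctgAAATGTTTTtttgtattta
5276 and 5393, second edge: gcgaattgccaAAATGTTTTatttcttgaa
5276 and 5393, join: actgtcccctgAAATGTTTTatttcttgaa
7287 and 7298, first edge: actccggaacgACATGTCcccgcgacatgt
7287 and 7298, second edge: ttttgtttggaACATGTCgcggggacatgt
7287 and 7298, join: actccggaacgACATGTCgcggggacatgt

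The first of these joins shares 6 bases, the second 11, the third 9 and the fourth 7. The joins of 5276 with 5596 and with 5393 use one edge with different but overlapping runs of identical bases. In the fourth, the edges are 11 bp apart and the plasmid itself holds the 7 bases and, shortly after them, their reverse complement.

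Short inversions carried most of the inversion reads. They made up 87.5% of the distinct inversions (95% exact binomial interval 84.6 to 90.1) and 65400 of 70057 inversion reads, or 93.4% (93.2 to 93.5). The median short inversion had 51.5 reads, with quartiles of 18.2 and 117, and the values ran from 1 to 4192. The longer inversions had a median of 32 reads, with quartiles of 8 and 92 and a highest value of 469. At least 100 reads were found for 155 short inversions and under 10 for 73. The reads were concentrated on few members, since the 3 highest held 16.5% (16.2 to 16.8) and the 10 highest 27.3% (27.0 to 27.7) of the reads on short inversions.

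Short inversions grew more frequent with span up to 300 bp and rarer above it. The median span was 198 bp, with quartiles of 127 and 260 bp. Counts rose in steps of 50 bp from 40 inversions at 1 to 50 bp through 59, 76, 93 and 101 to 117 at 251 to 300 bp. Above that, 31 lay at 301 to 350 bp and 9 at 351 to 500 bp. From 501 to 1000 bp there were 10 more, and the median span of the longer inversions was 3625 bp (quartiles 1989 and 5304 bp). The limit of 500 bp thus lies in a sparse stretch. Just inside it were the joins of 1798 and 2277 (479 bp, 27 reads), of 7968 and 8428 (460 bp, 2 reads) and of 1814 and 2260 (446 bp, 413 reads). Just outside it were those of 5596 and 6141 (545 bp, 134 reads), of 7661 and 8272 (611 bp, 49 reads) and of 3892 and 4507 (615 bp, 6 reads). The joins of 7968 and 8428, 7661 and 8272 and 3892 and 4507 had no splice motif, described below. Each had the same centre, the midpoint between the edges, as a short inversion with more reads. Whether they are separate rearrangements was not tested.

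**Figure D1:**
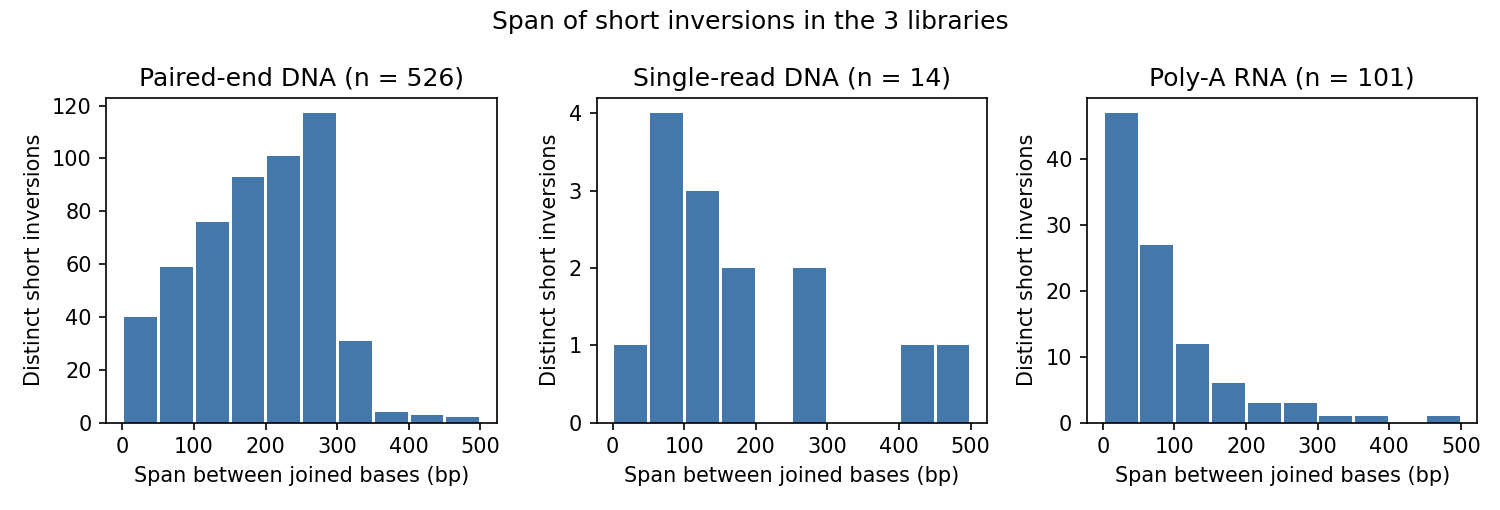
Number of distinct short inversions (vertical axes, from 0) by span in steps of 50 bp (horizontal axes) in paired-end DNA, single-read DNA and RNA. Paired-end counts climb to 117 at 251 to 300 bp and fall to 31 in the next step, whereas RNA counts are highest, at 47, in the shortest step.

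Spans differed in the other lists. Single-read DNA had 14 short inversions among 21, with a median span of 120.5 bp. RNA had 101 among 138, with a median of 55 bp and quartiles of 29 and 112 bp. Spans of at most 100 bp made up 18.8% of the short inversions of paired-end DNA (15.6 to 22.4), against 35.7% (12.8 to 64.9) for single-read DNA and 73.3% (63.5 to 81.6) for RNA. The intervals of paired-end DNA and RNA do not overlap, while that of single-read DNA overlaps both. The 3 libraries differ in molecule, read layout and depth, which cannot be told apart here. Whether a join was present in the DNA of the worms or arose while a library was made was not tested.

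Most short inversions joined positions that share bases. The mean was 3.64 identical bases and the median 4, with quartiles of 2 and 5. At least 5 identical bases were found at 181 of 526, or 34.4% (30.4 to 38.6), against 35.1% of all 601 inversions. No identical base was found at 40 of the short inversions, or 7.60% (5.49 to 10.2). Without the join of 1814 and 2260, where 51 bases upstream of *sur-5* recur inverted at the second edge, the mean was 3.55. Longer inversions had a mean of 3.43 and a median of 3, and 40% of them (28.9 to 52.0) had at least 5 identical bases, an interval that overlaps that of the short ones. The share with none was 25.3% (16 to 36.7) among the longer ones, above that of the short ones, and the intervals do not overlap. Over inversions with a splice motif, described next, the shares with none were 5.88% (1.23 to 16.2) among longer and 6.95% (4.91 to 9.49) among short ones, with intervals that overlap.

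The contrast with the longer inversions depended on the splice motif. The mapper looks for introns and places junctions at the dinucleotides of introns, GT-AG, GC-AG or AT-AC, on either strand. Such a motif was present at 518 of the 526 short inversions, or 98.5% (97.0 to 99.3), and at 51 of 75 longer ones, or 68.0% (56.2 to 78.3), against 94.7% of all. AT-AC made up 63.3% of the short ones with a motif (59.0 to 67.5), GT-AG 22.6% and GC-AG 14.1%. Over inversions with a motif, the share with at least 5 identical bases was 34.7% (30.6 to 39) for short and 58.8% (44.2 to 72.4) for longer ones. Over these, the longer inversions therefore had the larger share, with intervals that do not overlap but take each junction as independent. Some longer joins are listed more than once in the same run of identical bases, as 871 and 2921 and 873 and 2919, with 10 each. Over all inversions with 1 junction per centre, the shares were 36.5% (32.1 to 40.9) for short and 56.2% (41.2 to 70.5) for longer ones. The 24 longer inversions without a motif had a mean of 0.458 identical bases and a median of 7 reads. The 8 short ones without a motif had a mean of 1.12 and a median of 19.5 reads. Each of these 8 short and 24 longer ones had the same centre as an inversion with a motif, in most cases a short one. The longer join of 3639 and 7780 had that of 5637 and 5782, and 4056 and 11877 that of 7854 and 8079. Short inversions had 480 distinct centres, longer ones 62 and all together 528. Whether entries with 1 centre are separate rearrangements was not tested, and shares over all longer inversions include them.

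Reads per inversion rose with the identical bases. The median was 4 reads at the 40 short inversions with no identical base and 25 at the 150 with 1 or 2. It was 62 at the 155 with 3 or 4, 108 at the 129 with 5 or 6, 173 at the 43 with 7 or 8, and 413 at the 9 with 9 or more. The highest value in the first of these classes was 161 reads, and the lowest in the last was 154, so these classes hardly overlapped. The 161 reads belonged to the join of 7874 and 8059, which had no motif. It had the centre of 7854 and 8079 (2993 reads), and whether it is a separate join was not tested. Over the 526 short inversions the rank correlation (Spearman's rho) of reads and identical bases was 0.63. A mirror image on the other copy was listed for 259 of the 526, or 49.2% (44.9 to 53.6), against 46.4% of all inversions. The rho was 0.60 over these and 0.55 over the 267 listed on 1 strand of the reference alone. All of these points share 1 library and 1 mapping, and many share an edge, so no p-value is given. Members with at least 5 identical bases held 71.8% of the reads on short inversions (71.5 to 72.2).

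**Figure D2:**
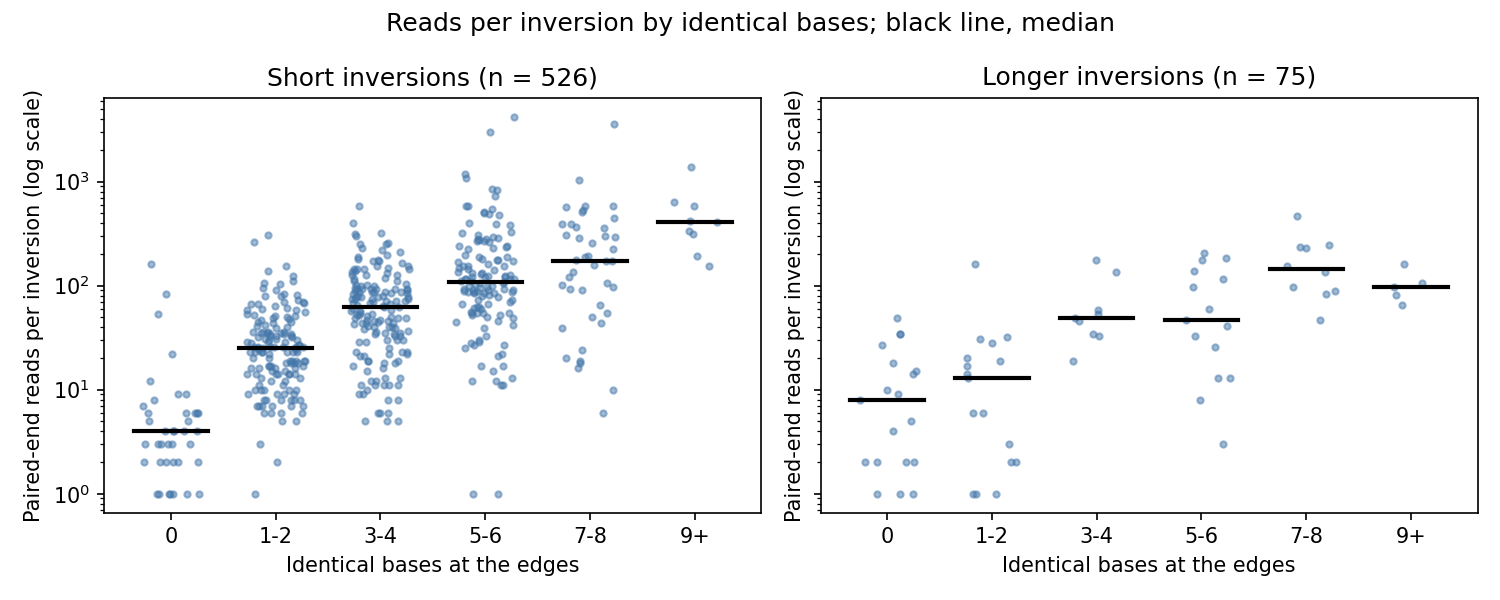
Paired-end reads per inversion (vertical axis, log scale) by number of identical bases at the edges (horizontal axis) for 526 short and 75 longer inversions. Each point is an inversion and the black line is the median, which for short inversions rises from 4 reads with no identical base to 413 with 9 or more.

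In the longer inversions the rho was 0.71 over 75. Their medians were 8, 13, 49, 47, 144 and 96 reads in the same 6 classes. In RNA, the 101 short inversions had a mean of 1.81 identical bases and a rho of 0.38, and 14.9% of them (8.56 to 23.3) had at least 5, below the interval of paired-end DNA. In single-read DNA the mean was 7.79 over 14 short inversions, and 50% (23.0 to 77) had at least 5. These 14 include the join of 1814 and 2260 with its 51 identical bases, which raises that mean. Reads were hardly related to span within the short inversions (rho 0.07), nor were identical bases (rho 0.03).

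To see how many joins the plasmid could have given, every pair of positions with a splice motif was counted, with pairs in the same run of identical bases taken as 1 join. There were 108960 possible short joins, with a mean of 0.664 identical bases, and 0.586% of them had at least 5. Of the 62517 possible short joins with no identical base, 36 were listed, or 0.0576% (0.0403 to 0.0797). Of the 40591 with 1 or 2, 0.360% (0.304 to 0.423) were listed, and of the 5214 with 3 or 4, 2.93% (2.49 to 3.43). Of 557 with 5 or 6 identical bases, 126 were listed, or 22.6% (19.2 to 26.3). Of 71 with 7 or 8, 42 were listed, or 59.2% (46.8 to 70.7). Of 10 with 9 or more, 9 were listed, or 90.0% (55.5 to 99.7). The listed share thus rose at every step, and most of the plasmid's close inverted repeats of 7 bases or more that carry a motif were listed.

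The same count separated short from longer joins. There were 1225387 possible longer joins, with a mean of 0.647 identical bases, close to that of the short ones. Of 6114 possible longer joins with 5 or 6 identical bases, 15 were listed, or 0.245% (0.137 to 0.404). Of 661 with 7 or 8, 9 were listed, or 1.36% (0.624 to 2.57), and of 66 with 9 or more, 3 were listed, or 4.55% (0.947 to 12.7). In each class the interval lies below that of the short joins. Among short joins with at least 5 identical bases, the listed share was highest from 201 to 300 bp. It was lower at both ends of the span range, and lowest at the long end. It was 19.0% (9.87 to 31.4) of the 58 such joins possible at 1 to 50 bp. At 201 to 250 and 251 to 300 bp it was 49.2% (36.4 to 62.1) and 48.7% (37.2 to 60.3). Between these, at 51 to 100, 101 to 150 and 151 to 200 bp, it was 35.8%, 42.2% and 43.2%. The intervals of these 3 steps overlap those at 201 to 300 bp. Above 300 bp it was 17.2% (8.59 to 29.4) at 301 to 350 bp, and of 176 such joins possible at 351 to 500 bp, 4 were listed, or 2.27% (0.623 to 5.72). These shares describe what was listed at this depth and take no account of coverage along the plasmid.

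**Figure D3:**
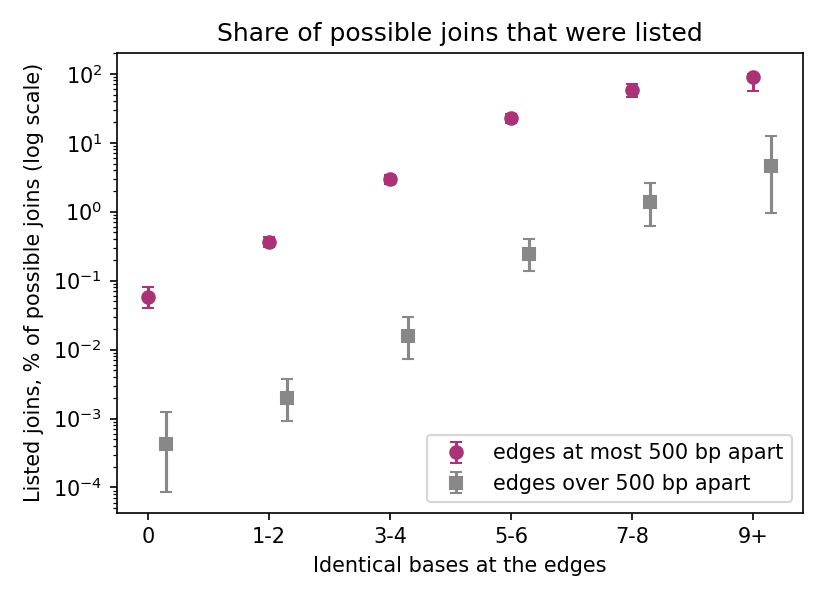
Listed joins as a percentage of all joins with a splice motif that the plasmid could form (vertical axis, log scale), by identical bases at the edges, for edges at most 500 bp and over 500 bp apart. Bars are exact 95% binomial intervals; the share rises from 0.0576% to 90.0% for short joins and stays lower for longer ones in every class.

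Short inversions were found in all parts of the plasmid, with fewer downstream of *gfp*. The upstream region (1 to 3698) held 34.5% of the 1052 edges (31.6 to 37.5), which is 1.12 times its share of the length. For *sur-5* (3699 to 7610) these values were 38.7% (35.7 to 41.7) and 1.19 times. The *gfp* part (7611 to 8522) held 10.2% (8.41 to 12.2), or 1.34 times its share. The stretch downstream of *gfp*, mostly vector (8523 to 12006), held 16.6% (14.4 to 19.0), or 0.573 times. Edges of longer inversions lay in the same parts 1.21, 0.880, 2.02 and 0.643 times as often as length would give. These include edges of the 24 longer inversions without a motif, several of them in *gfp*. The *gfp* share of the longer inversions was 15.3% (9.98 to 22.1), an interval that overlaps that of the short ones.

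The upstream region had 174 short inversions with both edges inside it, with 23543 reads. Within *sur-5* there were 190 with 23988 reads, and within *gfp* 44 with 7456. Downstream there were 84 with 5765 reads, and 34 crossed from one part to another, with 4648. The median was 60.5 reads upstream, 53.5 in *sur-5*, 61.5 in *gfp* and 24.5 downstream. The downstream members had fewer reads although their mean of 4.21 identical bases was the highest of the 4 parts, against 3.75, 3.44 and 3.30 in the same order. Their stretch is also the richest in G and C, with 46% against 33.8%, 36.9% and 36.6%, and the part of base composition in the lower number was not tested. The ampicillin resistance gene of the vector (9856 to 10716) held 31 edges, or 2.95% (2.01 to 4.16), against 7.17% of the length.

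**Figure D4:**
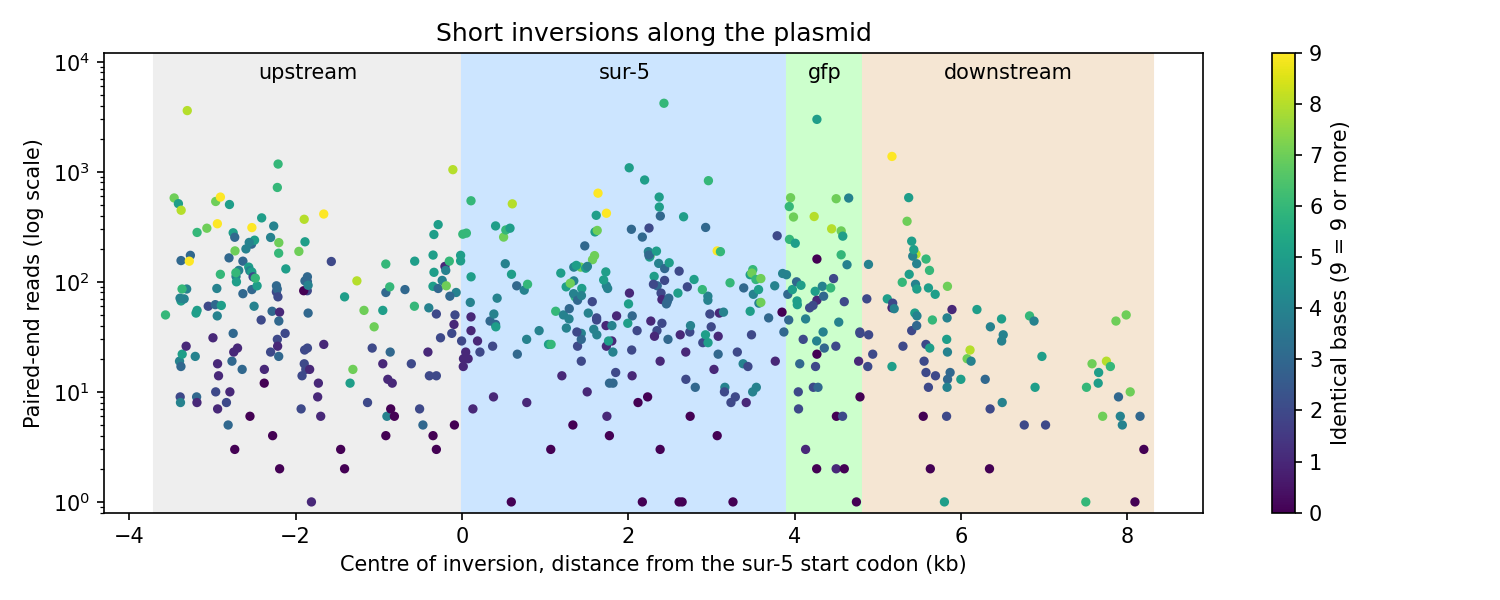
Short inversions of paired-end DNA by distance of their centre from the *sur-5* start codon (horizontal axis, kb) and reads (vertical axis, log scale), coloured by identical bases. Shading marks the plasmid parts; each part holds members from under 10 to over 100 reads, and points are sparser downstream of *gfp*.

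The leading members came from different parts. The join of 5993 and 6262, from *sur-5* sequence just after an intron into the intron that follows, had 4192 reads, a span of 269 bp and 6 identical bases. In the upstream region, 270 and 522 were joined by 3597 reads over 252 bp with 8 identical bases. The join of 7854 and 8079, between the first and second introns of *gfp*, had 2993 reads over 225 bp with 5 identical bases. These 3 stood apart from the rest.

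The join of 8818 and 8920 downstream of *gfp* had 1378 reads over 102 bp with 12 identical bases. The join of 1347 and 1629 upstream had 1175 reads, and that of 1347 and 1611, which uses the same first edge, had 720. In *sur-5*, the join of 5637 and 5782 had 1087 reads. Just before the start codon, that of 3508 and 3671 had 1045. All 10 with the most reads had at least 5 identical bases, and 9 of them spanned over 140 bp. The last of them were the joins of 5748 and 6042 (842 reads) and of 6529 and 6795 (830 reads) in *sur-5*. Among the longer inversions the highest were those of 8628 and 11056 (469 reads), 1457 and 8315 (245 reads) and 3508 and 7670 (236 reads), each with 7 identical bases.

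Of the members with the most identical bases, the join of 8818 and 8920, with 12, had 1378 reads and was also among the most deeply read. The join of 1814 and 2260, in the repeat of 51 bases, had 413 paired-end reads, and that of 5276 and 5596 inside a *sur-5* intron had 420 reads with 11 identical bases. Several members had 9, from 154 reads for 387 and 454 upstream and 337 for 603 and 913 to 589 for 741 and 848 and 639 for 5276 and 5393. The shortest spans were 6 bp for 1961 and 1967 (9 reads), 7 bp for 235 and 242 (578 reads, 7 identical bases) and 10 bp for 9387 and 9397 (14 reads).

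Edges were used repeatedly. The 1052 edges fell on 644 positions, of which 229 were used by 2 or more members and 22 by 5 or more. An edge was shared with another short inversion by 445 of 526 members, or 84.6% (81.2 to 87.6). The mapper places most edges at splice dinucleotides, which limits the positions that they can use. How much sharing this limit alone would give was not computed. Among the longer inversions, which are fewer, 22 of 75 shared an edge with one another, and 51 used an edge that a short inversion used too. Position 1347, upstream of *sur-5*, served 9 short inversions with spans of 223 to 300 bp and 2875 reads in all. Position 5393, in a *sur-5* intron, served 9 with 1207 reads, position 1048 served 8 with 1214 reads, and position 5276, in the same intron as 5393, served 7 with 1869 reads. In *sur-5*, 177 of 407 edges, or 43.5% (38.6 to 48.5), lay in the 8 introns seen in RNA, which take up 40.2% of its length, so edges were not set apart from the intron share beyond counting error. Members with 1 centre can be 1 rearrangement listed at shifted edges. The 526 members had 480 centres, 41 of them used more than once, and merging edges in the same run of identical bases left 520 joins.

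Of the 526 short inversions, 20 were also listed in another library with both edges equal. Single-read DNA had 11 of them, or 2.09% (1.05 to 3.71), against 2% of all 601 paired-end inversions, and these 11 were 78.6% of the 14 short inversions of that list (49.2 to 95.3). RNA had 10, or 1.90% (0.915 to 3.47), again against 2% of all, and these were 9.90% of its 101 short inversions (4.85 to 17.5). Shares of members in either list are thus near those of all inversions. The list of single-read DNA holds 10351 reads and that of paired-end DNA 147406. Read numbers were not scaled between libraries, so the values are set side by side only.

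The join of 8818 and 8920 was the only short inversion in all 3 lists, with 1378 paired-end, 1038 single-read and 32 RNA reads. The join of 1814 and 2260 had 413 paired-end and 1687 single-read reads, while 2380 and 2395 had 16 and 382, and 2260 and 2315 had 73 and 232. These 3 had more reads in the smaller list. The join of 8971 and 9169, with 582 and 411, was near equal. Of the others in single-read DNA, the join of 1798 and 2277 had 27 paired-end and 19 single-read reads. The join of 8201 and 8496 had 577 and 1, that of 1114 and 1232 had 311 and 2, 5097 and 5276 had 133 and 2, and those of 1260 and 1383 and of 713 and 809 had 1 single-read read each. The 3 members with the most paired-end reads, 4192, 3597 and 2993, were not listed in single-read DNA. A count of 0 there allows up to 3 reads, in a list of 10351 reads against 147406 in paired-end DNA.

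Members listed in RNA were short. Their median span was 34.5 bp, from 11 to 137 bp, against 201 bp for the 506 listed in neither other library, and their identical bases averaged 6. In *sur-5*, the join of 7287 and 7298 had 65 paired-end and 908 RNA reads, and that of 7285 and 7300 had 107 and 468. These joins lie in 1 run of identical bases and can be 1 rearrangement. The join of 5064 and 5084 had 141 and 232 reads and that of 4479 and 4496 had 95 and 141. Fewer in RNA than in DNA were the reads of 6881 and 6963, with 98 and 16, and of 4558 and 4695, with 36 and 7. In *gfp*, the join of 8201 and 8315 had 176 paired-end and 557 RNA reads. Past *gfp*, that of 8576 and 8601 had 33 and 77. In the ampicillin resistance gene, that of 10650 and 10694 had 21 paired-end and 19 RNA reads. No *gfp* member other than 8201 and 8315 was listed in RNA, and none of the 3 members with the most reads was.

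**Figure D5:**
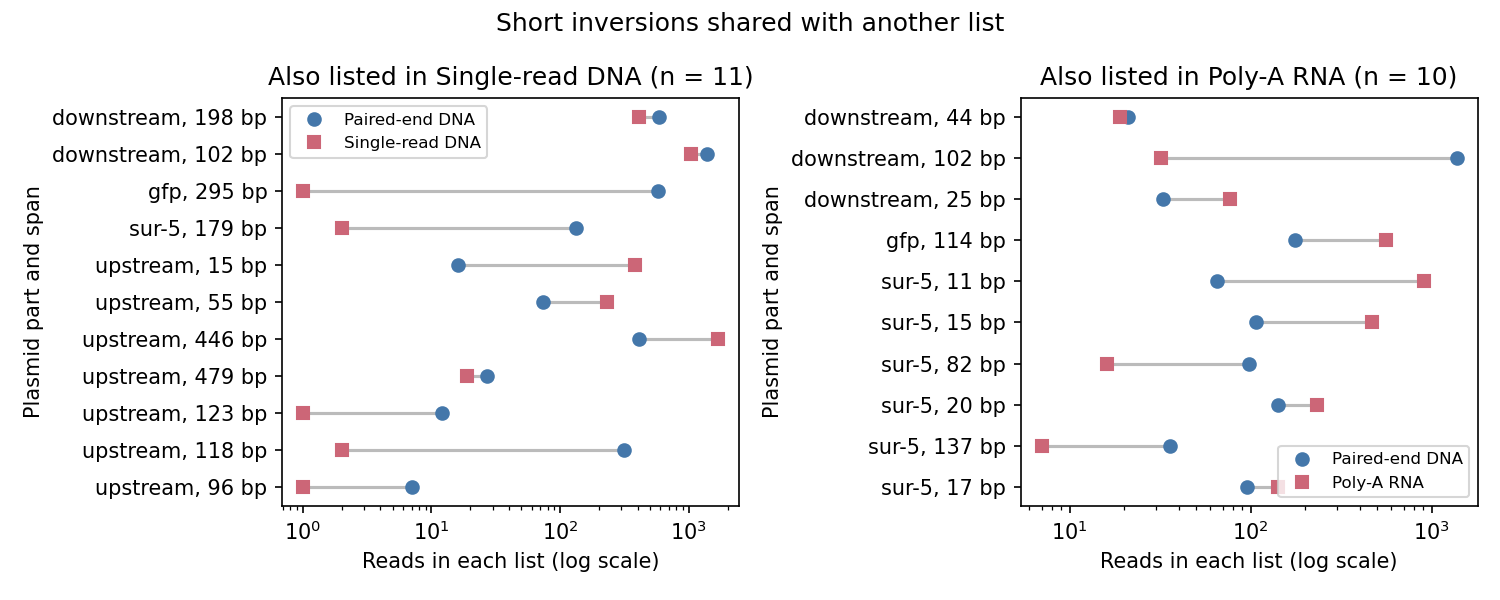
Reads (horizontal axes, log scale) of the short inversions listed with equal edges in paired-end DNA and in single-read DNA (11, left) or RNA (10, right). Each line is an inversion, named by its plasmid part and span and ordered along the plasmid; reads are not scaled between libraries.

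The authors' deposited table gives 15 short inversions, with spans of 102 to 314 bp, as percentages of the mean read coverage at their edges. In the authors' deposited table these ran from 3.25% to 21.0%, with a median of 6.83%, at a mean coverage of 7991.5 to 13289.5. The mapping is given there as paired for all but the join of 8818 and 8920, which is given as paired and single. With equal edges, 14 of the 15 were found in the paired-end list. For 10 of them the list had more reads than the authors' deposited table, as for 7854 and 8079, with 2993 in the list and 935 in that table. These 10 had 4 to 12 identical bases. For 4 the list had fewer. The join of 8358 and 8611 had 9 reads in the list and 1234 in the authors' deposited table, where it was 14.0% of coverage. The join of 3747 and 4025 had 29 in the list and 862 in the authors' deposited table. For 1732 and 2046 these were 1 in the list and 637 in the authors' deposited table, and for 7439 and 7670 they were 119 and 609. These 4 had 0, 1, 1 and 4 identical bases in that order. Whether the table and the list came from the same mapping is not known, so their read numbers may not count the same reads. By the authors' deposited table, some joins with no identical base thus had more reads than the 161 that were the highest of that class in the list. The join of 5876 and 6173, with 404 reads in the authors' deposited table and no identical base, was not in the list.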

How the data were processed

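Genomic DNA read from both ends, genomic DNA read from 1 end and poly-A-selected RNA of strain HC566 were each sequenced as 1 library, and groups were taken from the titles. Reads were mapped to plasmid pTG96 with TopHat2, per the labels and the submitters' processing notes. Its version and settings, and any trimming or removal of duplicates, are not stated in the sources used here. The deposited lists give a count of spanning reads per junction, per the file headers, without normalization. The authors' deposited table gives read counts, coverage as a signal and the percent that reads make up of it, and its positions were raised by 1.

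Edges were computed from each junction's start, end and block lengths. Junctions with an edge outside the reference were left out, 923 of 2045 in paired-end DNA with 17037 of 147406 reads. Mirror images were joined and the higher count kept, because the reference is its own reverse complement and a read can map to either. Of the short inversions, 267 were listed on 1 strand alone. Identical bases were counted to the left and right of the edges over which the join could be shifted. Plasmid parts came from the open reading frames and from GT-AG introns with at least 1000 RNA reads, of which 8 lay in *sur-5*. Reads from the chromosomal *sur-5* gene cannot be told apart.

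Intervals are exact Poisson or Clopper-Pearson at 95%. With 1 library per group no test was made, and junctions are not replicates. Reads are not independent molecules. The named joins follow rules of rank (most reads, most identical bases, smallest span, nearest to the limit, listed elsewhere, in the authors' table), and the edges used most often were named after their values were seen. The members, lists and comparisons were chosen with earlier results of these data known, and the count of possible joins was added after seeing the data. Edge and identity computations were tested on simulated data. Python 3.11.15, NumPy, pandas and SciPy were used. Alternatives were a splice motif, at least 10 reads, 1 junction per centre, limits of 300 and 1000 bp, a listed mirror image, summed mirror images, a threshold of 3 identical bases and edges within 5 bp.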

Additional observations from a re-analysis of the deposited data

Results flagged for a closer look

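Junctions between the copies with an edge outside the reference were left out of the inversions. In paired-end DNA they numbered 25 with 823 reads, above the 3 reads that a count of 0 allows. Of these, 24 had the centre of a listed short inversion, and none had edges at most 500 bp apart.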

How the results depend on the processing

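Of 90 recomputed values, 65 stayed within the 95% interval of the reported value or, for counts, within 1.5 times of it. No value has a test. Over joins with a splice motif, 91.0% of inversions and 93.7% of their reads were short, and 58.8% of longer inversions had at least 5 identical bases. With 1 junction per centre these values were 90.9%, 94.0% and 56.2%. With at least 10 reads the median was 66 reads, the mean 4.02 identical bases and the share with at least 5 of them 39.3% (34.8 to 44.0). For longer ones with at least 10 reads that share was 51.9% (37.8 to 65.7), an interval that overlaps. A limit of 300 bp left 80.9% of inversions and 87.9% of reads short, and a limit of 1000 bp 93.9% of reads. With the mirror image also listed, 259 short inversions remained, 92.8% of inversions with 95.8% of reads, with a median span of 213 bp, a median of 87 reads and a mean of 4.53 identical bases. Of them 51% (44.7 to 57.2) had at least 5 identical bases, against 75% (50.9 to 91.3) of longer ones, with intervals that overlap. In RNA, 6 of them were listed. With mirror images summed, short inversions held 94.6% of reads with a median of 64. At least 3 identical bases were found at 63.9% of short and 52.0% of longer inversions, the opposite order. The longer ones include 24 without a motif, with a mean of 0.458 identical bases. Of the 51 longer inversions with a motif, 3 had no identical base and 9 had 1 or 2. Of the 518 short ones with a motif, 36 had none and 147 had 1 or 2, so over these the order was not reversed. No paired analysis was possible because each group has 1 library. Intervals cover counting error only, and the coverage along the plasmid, which limits what could be listed, was not used here.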

Other observations

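Short inversions were counted by centre in 12 windows of 1000 bp along the plasmid. The most, 70, lay at 5001 to 6000 and the fewest, 13 and 17, at 10001 to 11000 and 11001 to 12000, in the vector. The window at 2001 to 3000, upstream of *sur-5*, had 26 with 1393 reads, between neighbours with 64 and 8086 reads and with 49 and 5395 reads. The vector windows have 46.8% and 52.6% G and C, the window at 2001 to 3000 has 36.4%, and its neighbours have 32.0% and 35.3%. The window at 9001 to 10000, downstream of *gfp*, had 44 with 3418 reads at 44.0% G and C. Fewer, 33 and 37, lay at 4001 to 5000 and 8001 to 9000, with 38.1% and 35.6%. The 50 bases around the edges of short inversions averaged 36.5% G and C, against 38.6% for the plasmid and 36.2% around the edges of longer inversions.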
